A study of Macaca mulatta with 6 samples.

Results

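The genes described here are those of the lysosomal cathepsins, the lysosomal membrane proteins LAMP1, LAMP2, LAMP3 and LAMP5, the vacuolar proton pump and the autophagy machinery, together with the transcription factors TFEB, TFE3 and MITF. They were taken from the count table by symbol: CTS followed by a letter, LAMP or ATG followed by a digit, the prefix ATP6V, or one of 12 single names. The rule found 59 of the 17795 genes listed. MAP1LC3B and GABARAPL2, which the rule also names, had no row and were not analysed here. The prefixes also found no row for CTSK, ATG12, ATG14, ATP6V0C, ATP6V0E1 or ATP6V1F, so counts by family cover only the genes found. The rule works on symbols and uses no measured value.

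RNA was sequenced from cultured spermatogonial stem cells (SSCs) of the rhesus monkey, the testicular cells that renew themselves and give rise to sperm. The study's methods describe 3D droplets of basement membrane extract under a serum-containing medium with GDNF, EGF, LIF, bFGF, Wnt3a, melatonin and vitamin C. The PDGF group comprised 3 libraries from cultures that also received human platelet-derived growth factor (PDGF), and the PDGFNO group comprised 3 libraries from cultures without it. The culture without PDGF was not described separately, so whether it differed in PDGF alone was not stated. The study's results call the platform a collagen-PDGF hydrogel. In each group replicate 1 belonged to batch 1 and replicates 2 and 3 to batch 2. Age, donor, passage and days in culture were not given for these libraries, and no genetic change was named. The labels give the tissue as testis and do not say whether replicates came from separate cultures, so p-values measure the spread between these libraries, which may be technical.

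Total counts ranged from 13095467 to 14102697 in PDGF and from 10593805 to 11605908 in PDGFNO. Replicate 1 stood apart from replicates 2 and 3 in each group: the chi-square of counts over genes, divided by its degrees of freedom, was 47.2 to 60.2 between replicate 1 and the others, against 3.44 (PDGF) and 3.66 (PDGFNO) between replicates 2 and 3. Levels are CPM, that is, counts scaled to a common library size after TMM normalization, given as mean ± SD with n = 3 per group. A gene was called when the Benjamini-Hochberg adjusted p of edgeR's quasi-likelihood test over all 11539 genes tested was below 0.05. Defining markers went partly against the label of the cells. The summed level of 10 fibroblast and stromal markers lay between 23689 and 28986 CPM in every library. By contrast, 12 spermatogonial markers summed to between 351 and 463 CPM, with NANOS2 and STRA8 at 0 counts in all 6 libraries. It was not tested whether reads of genes at 0 could be counted. UCHL1 (263 CPM with PDGF, 185 without) and ID4 (131 and 163 CPM) made most of this sum. DDX4 (0.305 and 2.13 CPM) and DAZL (0.210 and 1.13 CPM) were low. NANOS3, UTF1 and KIT, also planned as markers, were not among the 12 genes found. A sum follows its most expressed genes, so these sums do not give shares of cells. Of the 5 tested, UCHL1 was called higher (log2 fold change 0.51, adjusted p = 0.0319). DDX4 (-2.72, adjusted p = 0.0284) and FGFR3 (-2.07, adjusted p = 0.0189) were called lower. These calls were lost in 4, 3 and 3 of the 6 fits with a library left out. GFRA1, ERBB4, ZBTB16, MAGEA4 and SALL4 did not pass the filter on low counts. In bulk RNA, fewer cells of a type and less RNA per cell cannot be told apart.

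Lysosomes are acidic organelles that break down material delivered by endocytosis and by autophagy. The vacuolar ATPase acidifies them by pumping protons: its cytosolic V1 sector splits ATP and its membrane V0 sector carries the protons. Cathepsins are the main lysosomal proteases, and autophagy encloses cytoplasm in a double membrane, built by the ATG proteins, that fuses with the lysosome. TFEB, TFE3 and MITF are related basic helix-loop-helix factors that bind E-boxes of the CLEAR type in the promoters of many such genes.

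Of the 59 genes, 49 passed the filter on low counts. With PDGF, 3 of the 49 were higher (CTSL, ATP6V1A and ATP6V1B2) and 10 were lower (CTSA, CTSC, CTSF, CTSH, LAMP1, ATP6V1C1, ATP6V1G1, MITF, GABARAP and ATG16L2). The 13 calls are 26.5% of the genes tested, against 18.3% of all genes in the same fit. By direction, 7.61% of all genes were higher and 10.7% lower. The median log2 fold change of the 49 was -0.18, against 0.02 over all genes tested, with 19 positive and 30 negative values. CPM did not overlap between the groups for 22 of the 49, with PDGF above in 7 and below in 15, and this held for 37.6% of all genes. The direction was the same in both batches for 44 of the 49, and for 84.8% of all genes.

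Libraries with the same replicate number shared a batch. With the replicate number as a block, 10 of the 49 genes were higher and 23 lower, while 60.1% of all genes were called, 31.1% higher and 29% lower. When the block was combined with a GC and length correction, the split was 14 higher and 16 lower, in a fit that called 58.6% of all genes. When replicates 2 and 3 of each group were summed, 3 calls were left: CTSL higher, and CTSH and CTSC lower. That fit tested 50 of the 59 genes and called 5.78% of all genes, so the number left is near that share.

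**Figure D1:**
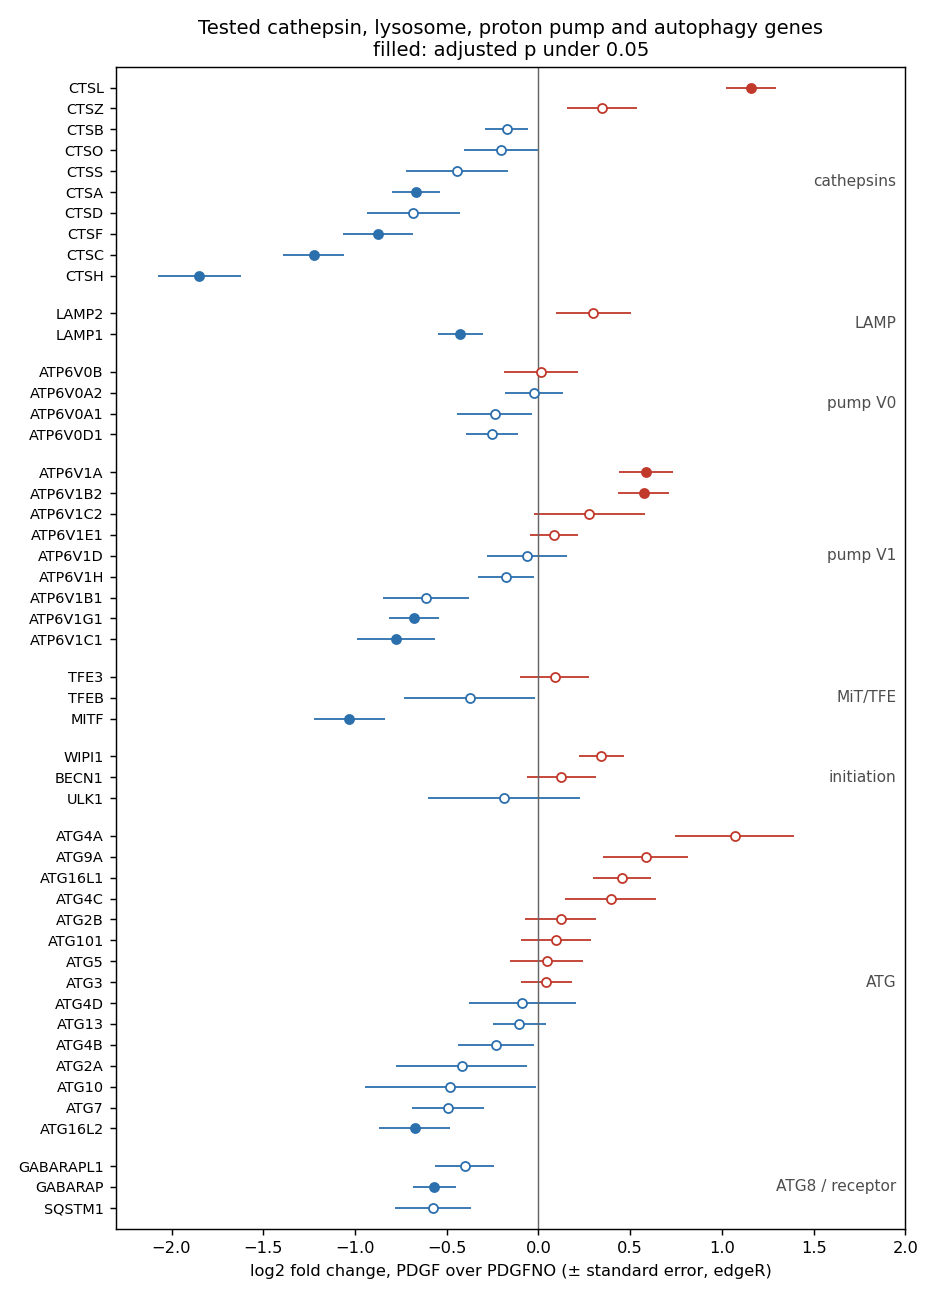
Log2 fold change of PDGF over PDGFNO with its standard error (horizontal axis) for the 49 genes tested, ordered by role on the vertical axis. Filled points have an adjusted p below 0.05 in edgeR's quasi-likelihood test (3 higher, 10 lower). CTSL has the highest value, 1.16, and CTSH the lowest, -1.85.

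E-boxes were searched for in the promoters of these genes. In windows from 250 bases before to 50 bases after the RefSeq gene start (Mmul_10), the E-box CACGTG occurred in 13 of the 59 (22.0%), against 7.72% of all 20773 protein-coding windows. The longer CLEAR core TCACGTGA, which contains CACGTG, occurred in 5 of the 59 (8.47%), against 1.07% of all windows. Both motifs read the same on either strand. Over the genes tested, CACGTG occurred in 9.13% and TCACGTGA in 1.46%. Among the 59, the windows with CACGTG were those of CTSB, CTSF, CTSV, LAMP1, ATP6V0D1, ATP6V1A, ATP6V1C1, ATP6V1D, ATP6V1E2, ATP6V1G1, ATG3, ATG5 and BECN1.

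The sites below are a selection from called genes that moved in opposite directions, with ATP6V1A the only 1 of them higher with PDGF. ATP6V1C1, also called lower, holds CACGTG 138 bases before its start, and that site is not printed. Each is written on the strand of the gene, 5′ to 3′, with CACGTG in capitals and 12 bases on each side.
ATP6V1G1, chr15:28265514-28265543, minus strand: acgctgcgcggtCACGTGacaacgggggag
LAMP1 site before the start, chr17:94550890-94550919, plus strand: gaccctcggggtCACGTGacgcccgggcgc
LAMP1 site after the start, chr17:94550917-94550946, plus strand: cgcggcgcagctCACGTGacaggcgctgcc
CTSF, chr14:7979329-7979358, plus strand: ccccgcgcgcccCACGTGcctcctgtaaac
ATP6V1A, chr2:162511310-162511339, minus strand: gccgctactccaCACGTGcactcgggtctc
The motif starts 72 bases before the start of ATP6V1G1, 56 before that of CTSF and 190 before that of ATP6V1A, all 3 within the region upstream of the gene. In LAMP1 the motif occurred 5 times, and the printed sites begin 19 bases before the start and at base 9 of the gene.

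The printed sites of ATP6V1G1 and LAMP1 hold the longer core, and those of CTSF and ATP6V1A hold the shorter one. CACGTG was found in 4 of the 10 windows of genes lower with PDGF, in 1 of the 3 windows of genes higher with PDGF, and in 6 of the 36 windows of genes tested and not called. The windows of CTSL, CTSH, CTSC, MITF and GABARAP did not hold these letters. A match describes the sequence of the reference and was not tested as a binding site.

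Among the cysteine cathepsins, 1 of the 8 tested was higher (CTSL) and 3 were lower (CTSH, CTSC and CTSF). Counting the serine and aspartic enzymes, 10 of 14 cathepsins were tested, with 1 higher, 4 lower (50%, against 18.3% of all genes) and a median log2 fold change of -0.56. All 10 kept their direction in both batches. With the replicate block 2 were higher and 7 lower, in a fit that called 60.1% of all genes.

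CTSL encodes cathepsin L, an endopeptidase that also acts outside the cell and in the nucleus. It had 742, 702 and 613 CPM in PDGF replicates 1 to 3, and 342, 282 and 297 CPM in PDGFNO replicates 1 to 3. Every PDGF library lay above every PDGFNO library. The means were 686 ± 65.7 and 307 ± 31.1 CPM (SD, n = 3), a 2.23-fold higher level with PDGF (log2 fold change 1.16, SE 0.14, adjusted p = 0.00118). The log2 difference was 1.12 in batch 1 and 1.18 in batch 2. It was the only cathepsin gene called higher.

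CTSH, an aminopeptidase of the same family, had the largest decrease among the 49 genes. Its levels were 11.5, 16.4 and 19.7 CPM with PDGF and 48.9, 62.4 and 60.2 CPM without. No library of one group reached the range of the other. The means were 15.9 ± 4.10 and 57.2 ± 7.19 CPM (SD, n = 3), 3.60-fold higher in PDGFNO (log2 fold change -1.85, SE 0.22, adjusted p = 0.00144). Within batches the log2 difference was -2.08 in batch 1 and -1.77 in batch 2.

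CTSC, the dipeptidyl peptidase that activates granule serine proteases of immune cells, moved in the same direction. It had 18.0, 15.2 and 16.6 CPM with PDGF and 43.2, 34.5 and 38.7 CPM without. All 3 PDGF libraries lay below the PDGFNO libraries. The log2 fold change was -1.23 (SE 0.16, adjusted p = 0.00214), with -1.27 in batch 1 and -1.20 in batch 2.

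CTSF, a cysteine cathepsin with a long cystatin-like propeptide, had 18.4, 20.8 and 26.4 CPM with PDGF and 40.5, 34.9 and 44.6 CPM without. The groups did not overlap, and the gap was smaller than for CTSH or CTSC. The log2 fold change was -0.87 (SE 0.19, adjusted p = 0.0164). CTSA, a serine carboxypeptidase that protects β-galactosidase and neuraminidase in the lysosome, had 81.8, 84.8 and 91.7 CPM with PDGF and 136, 146 and 128 CPM without. Its groups did not overlap either (log2 fold change -0.67, SE 0.13, adjusted p = 0.0107). Exons of CTSA overlap NEURL2 and PLTP on the opposite strand, and the strand setting of the counting was not given.

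CTSD, the main aspartic protease of the lysosome, had counts identical to those of IFITM10 in every library, and the reads of these genes cannot be separated. The values were 450, 735 and 766 CPM with PDGF and 739, 1169 and 1224 CPM without. The groups overlapped, because replicate 1 of PDGFNO lay within the PDGF range, while each PDGF library lay below the PDGFNO library of its number. The log2 fold change was -0.68 (SE 0.25, adjusted p = 0.0995), with the replicate block the adjusted p was 6.95e-13, and DESeq2 called it at 0.0487. Batches 1 and 2 gave -0.71 and -0.67. Without PDGFNO replicate 1 the adjusted p was 0.0170.

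The other 4 cathepsins tested were not called. CTSB, an abundant endopeptidase and carboxypeptidase, had 506 ± 39.9 CPM with PDGF and 571 ± 14.3 CPM without (log2 fold change -0.17, adjusted p = 0.338, with the block 0.00108). CTSZ, a carboxypeptidase, had a log2 fold change of 0.35 (adjusted p = 0.244, with the block 0.0162), and CTSO one of -0.20 (adjusted p = 0.524, with the block 0.0404). CTSS, the cathepsin of antigen-presenting cells, was low, at 3.97 ± 0.776 and 5.41 ± 1.26 CPM (adjusted p = 0.299).

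Per kilobase of the longest RefSeq transcript, the highest levels among the cathepsins were those of CTSD, CTSL and CTSB. They stood at 288, 418 and 151 CPM per kilobase with PDGF and at 462, 187 and 170 without, so CTSL ranked above CTSD with PDGF and below it without. CTSL gave 39.9%, 32.5% and 28.7% of all cathepsin counts in the PDGF libraries and 17.2%, 11.9% and 12.2% in the PDGFNO libraries. CTSD gave 24.2%, 34.0% and 35.9% in PDGF and 37.1%, 49.3% and 50.1% in PDGFNO. The share of CTSB ranged from 23.9% to 27.9% over the 6 libraries. All cathepsins together took 0.195% to 0.211% of the library in PDGF and 0.209% to 0.235% in PDGFNO. The ranges overlapped, and each PDGF library lay below the PDGFNO library of its number.

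**Figure D2:**
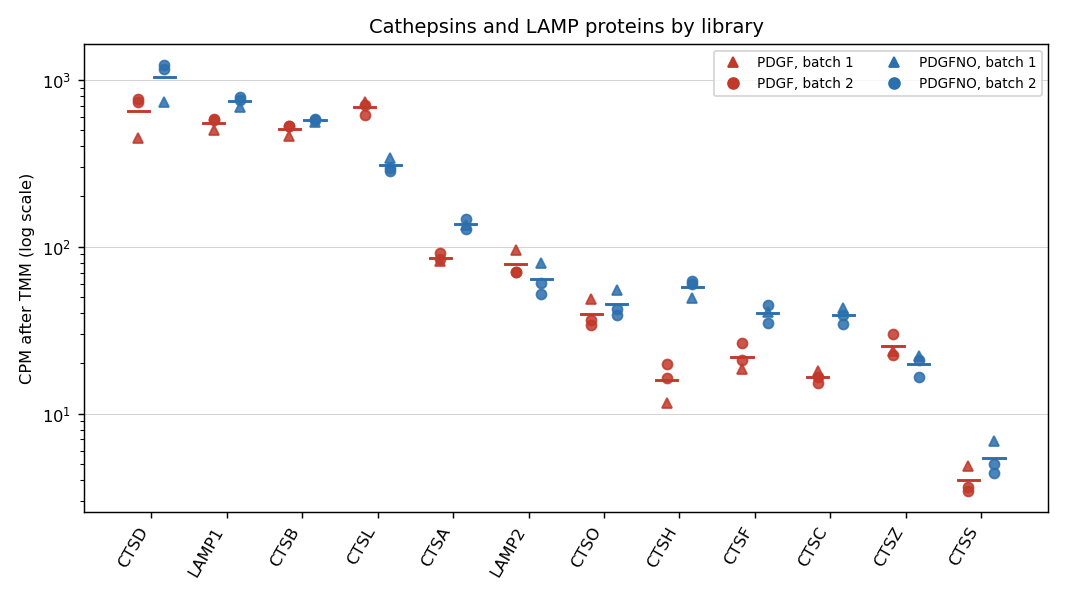
CPM of the cathepsin genes tested in each library (log axis), PDGF beside PDGFNO, with triangles for batch 1 and circles for batch 2. CTSL lies between 613 and 742 CPM with PDGF and between 282 and 342 CPM without, and CTSH, CTSC, CTSF and CTSA lie below their PDGFNO libraries.

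Cathepsins C, H and S are abundant in macrophages, so myeloid markers were read beside them. The 15 markers summed to between 23.5 and 26.7 CPM in PDGF and between 26.8 and 34.0 CPM in PDGFNO. CD68, at 15.8 ± 1.61 and 12.9 ± 2.48 CPM, made the largest part of these sums. It was the only marker tested with a positive value (log2 fold change 0.28, adjusted p = 0.372). PTPRC, which marks all leukocytes, and MARCO had 0 counts in all 6 libraries, and whether their reads could be counted was not tested. Of the 6 markers tested, 5 had negative values, and the median log2 fold change of the 6 was -0.69. The share called was 16.7%, against 18.3% of all genes. CD74 alone was called (3.98 ± 0.502 against 8.35 ± 1.25 CPM, log2 fold change -1.07, adjusted p = 0.0156). It lost the call without PDGF replicate 2 (adjusted p = 0.0668) or PDGFNO replicate 3 (adjusted p = 0.0564). The T cell markers summed to at most 0.686 CPM in any library, with 4 of 5 at 0 in all. Other marker sums moved more: epithelial markers summed to between 35.6 and 51.9 CPM in PDGF and between 91.3 and 126 CPM in PDGFNO, and spermatid markers to between 109 and 153 CPM and between 604 and 923 CPM. Peritubular myoid markers, with DES and ACTA2 called lower (40% of the 5 tested, against 18.3% of all genes), summed to between 369 and 478 CPM and between 696 and 908 CPM. The sum of the Sertoli markers went the other way, with between 1448 and 1920 CPM in PDGF and between 868 and 1167 CPM in PDGFNO. CLU made most of it (1610 ± 238 and 935 ± 139 CPM) and was the only 1 of the 4 tested that was called (25%, against 18.3% of all genes). WT1, GATA4 and INHA had log2 fold changes of 0.04, 0.12 and -0.24. FATE1, below the filter, had 0 counts with PDGF and 14, 17 and 2 without. The part of these cells in the cathepsin differences was not tested.

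LAMP1 and LAMP2 line the inner face of the lysosomal membrane with a glycoprotein coat. LAMP1 had 502, 587 and 574 CPM with PDGF and 684, 755 and 793 CPM without. Every PDGF library lay below every PDGFNO library. The log2 fold change was -0.43 (SE 0.12, adjusted p = 0.0490), close to the threshold, with -0.45 in batch 1 and -0.42 in batch 2. LAMP2, which also serves chaperone-mediated autophagy, had 95.1, 70.1 and 71.0 CPM with PDGF and 79.5, 60.4 and 52.0 CPM without. Its groups overlapped (log2 fold change 0.30, SE 0.20, adjusted p = 0.346, with the block 7.12e-04), and each PDGF library lay above the PDGFNO library of its number. Per kilobase LAMP1 exceeded LAMP2 in both groups, at 241 against 20.7 CPM per kilobase with PDGF and 324 against 16.8 without.

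The proton pump moved in both directions within the V1 sector. Of 9 V1 subunits tested, 2 were higher with PDGF and 2 lower, and of 4 V0 subunits tested none was called. The 4 calls are 30.8% of the 13 subunits, against 18.3% of all genes. Over the 13 the median log2 fold change was -0.06, near the 0.02 of all genes. With the replicate block 2 were higher and 6 lower, in a fit that called 60.1% of all genes. Among the V0 subunits none had an unadjusted p below 0.05, and DESeq2 called none of them.

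The subunits that were higher are ATP6V1A and ATP6V1B2, which together form the ATP-splitting ring. ATP6V1A, the catalytic A subunit, had 65.5, 55.1 and 54.4 CPM with PDGF and 39.9, 39.0 and 37.7 CPM without. The groups did not overlap (log2 fold change 0.59, SE 0.15, adjusted p = 0.0270, batches 0.71 and 0.51). ATP6V1B2, the widely expressed B subunit, had 404, 364 and 358 CPM with PDGF and 289, 231 and 237 CPM without. It also showed no overlap (log2 fold change 0.57, SE 0.14, adjusted p = 0.0239, batches 0.49 and 0.63). ATP6V1B1, the B subunit known from the kidney and inner ear, had 6.12 CPM per kilobase without PDGF, against 87.6 for ATP6V1B2, with a log2 fold change of -0.61 (SE 0.24, adjusted p = 0.111, with the block 0.00395).

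The subunits that were lower are ATP6V1C1, the C subunit that ties V1 to V0, and ATP6V1G1, a G subunit of the peripheral stalks. ATP6V1C1 had 42.1, 29.1 and 31.3 CPM with PDGF and 72.8, 51.0 and 51.6 CPM without. Replicate 1 was the highest of its group on both sides, and the groups did not overlap (log2 fold change -0.78, SE 0.21, adjusted p = 0.0398, batches -0.79 and -0.77). ATP6V1G1 had 103, 99.2 and 86.3 CPM with PDGF and 167, 148 and 148 CPM without. Its groups stood apart as well (log2 fold change -0.68, SE 0.14, adjusted p = 0.0121, batches -0.70 and -0.67).

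Within a library the ratio of ATP6V1B2 to ATP6V1G1 counts needs no scaling between libraries. It was 3.91, 3.67 and 4.15 in PDGF and 1.73, 1.56 and 1.61 in PDGFNO. The ratio of ATP6V1A to ATP6V1C1 was 1.56, 1.90 and 1.74 in PDGF and 0.549, 0.765 and 0.731 in PDGFNO. Neither ratio overlapped between the groups. These pairs were chosen after their values were seen, so the ratios are descriptions.

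The remaining subunits of the V1 sector had log2 fold changes between -0.18 (ATP6V1H, adjusted p = 0.460, with the block 0.0325) and 0.28 (ATP6V1C2, adjusted p = 0.560). ATP6V1D, of the central shaft, and ATP6V1E1, of the stalks, had -0.06 and 0.08. In the V0 sector ATP6V0D1, which couples the shaft to the membrane ring, had 155, 180 and 186 CPM with PDGF and 181, 214 and 225 CPM without. Its groups overlapped (log2 fold change -0.25, adjusted p = 0.255, with the block 1.42e-04). ATP6V0A1 had -0.24 (adjusted p = 0.454, with the block 0.00439), ATP6V0A2 -0.03 and ATP6V0B 0.01. The counts of ATP6V0B were identical to those of DPH2 in every library, so they cannot be assigned to a single gene.

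Per kilobase, the highest V1 level was that of ATP6V1G1 in PDGFNO (236 CPM per kilobase, against 148 with PDGF). ATP6V1B2 had 130 CPM per kilobase with PDGF and 87.6 without. ATP6V1E1 stood at 113 with PDGF and 107 without, and ATP6V1D at 102 and 107, so that ATP6V1B2 ranked above both with PDGF and below both without. ATP6V0D1 had the highest V0 level, at 100.4 and 120 CPM per kilobase.

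**Figure D3:**
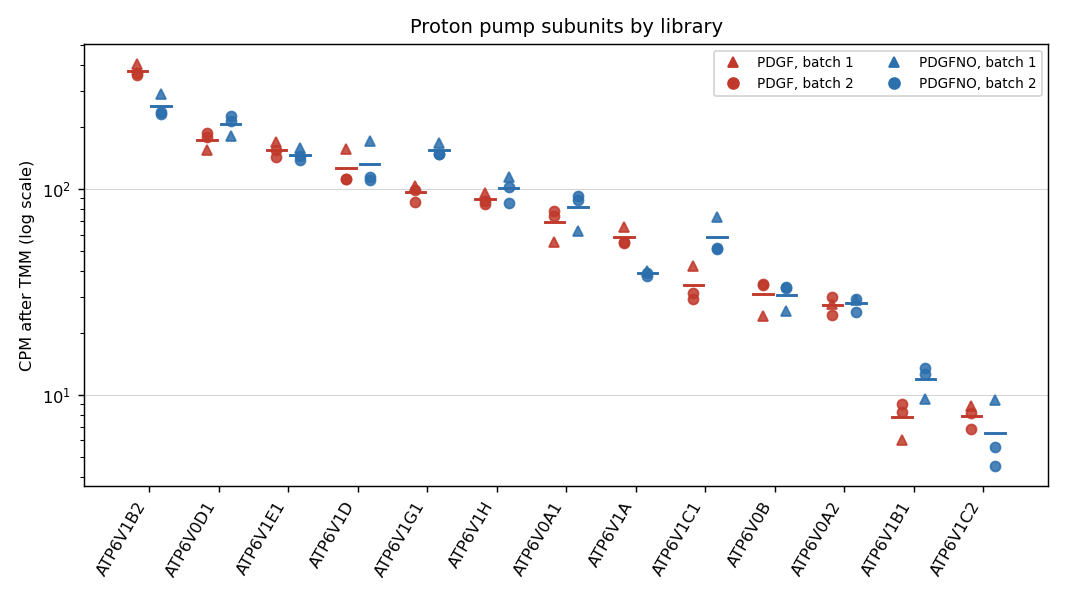
CPM of the proton pump genes tested in each library (log axis), PDGF beside PDGFNO, with triangles for batch 1 and circles for batch 2. ATP6V1A and ATP6V1B2 lie above and ATP6V1C1 and ATP6V1G1 below their PDGFNO libraries, while the V0 genes overlap.

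Of the 3 factors that bind the CLEAR type of E-box, MITF alone was called (33.3%, against 18.3% of all genes). MITF, also a key factor of melanocytes and osteoclasts, had 45.8, 32.3 and 34.1 CPM with PDGF and 90.8, 70.0 and 68.7 CPM without. Every PDGF library lay below every PDGFNO library. The means were 37.4 ± 7.35 and 76.5 ± 12.4 CPM (SD, n = 3), 2.04-fold higher in PDGFNO (log2 fold change -1.03, SE 0.19, adjusted p = 0.00904, batches -0.99 and -1.06).

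TFE3 had 128, 185 and 181 CPM with PDGF and 130, 158 and 176 CPM without. The groups overlapped (log2 fold change 0.09, SE 0.19, adjusted p = 0.778), and the sign differed between batches, at -0.02 and 0.13. TFEB, whose nuclear entry is held back by mTORC1, had 11.3, 21.0 and 20.7 CPM with PDGF and 12.7, 26.1 and 30.2 CPM without. Replicate 1 was the lowest of its group for both genes on both sides. The log2 fold change of TFEB was -0.38 (SE 0.36, adjusted p = 0.50, with the block 0.0180). Per kilobase TFE3 was the highest of the 3 in both groups, at 47.5 and 44.7 CPM per kilobase, against 7.74 and 15.8 for MITF and 7.02 and 9.11 for TFEB. The ratio of TFE3 to MITF counts, also chosen after its values were seen, was 2.79, 5.72 and 5.30 in PDGF and 1.43, 2.26 and 2.56 in PDGFNO.

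Melanocyte and osteoclast markers, read beside MITF, summed to between 3.83 and 4.66 CPM in PDGF and between 10.7 and 13.9 CPM in PDGFNO over 7 genes. PMEL, a melanosome protein and a known MITF target, made most of this sum, with 3.24 ± 0.663 CPM in PDGF and 10.6 ± 1.73 CPM in PDGFNO (log2 fold change -1.71, adjusted p = 0.00323). The osteoclast markers did not move together. ACP5 was tested and not called (log2 fold change -1.03, adjusted p = 0.254), with 0.33 in batch 1 and -1.72 in batch 2. Below the filter, DCSTAMP had 6, 1 and 4 counts with PDGF and 0 without, and CALCR had 1, 0 and 0 with PDGF and 0 without. OCSTAMP was at 0 in all libraries. The melanocyte genes TYR (0, 1 and 0 counts with PDGF, 13, 1 and 2 without) and DCT (0, 0 and 1, against 3, 0 and 0) were also below the filter. Whether cells of these types carry the MITF difference was not tested.

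Of the 21 autophagy genes tested, none was called higher and 2 were called lower, GABARAP and ATG16L2. This is 9.52%, against 18.3% of all genes. The median log2 fold change was -0.09. An unadjusted p below 0.05 was found for 9 of the 21 in either direction, and for 3838 of all 11539 genes. DESeq2 called 1 gene higher, ATG4A, in a fit that called 23.6% of all genes. With the replicate block 5 of the 21 were higher and 7 lower, against 60.1% of all genes called.

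GABARAP, one of the ubiquitin-like ATG8 proteins that are coupled to the autophagosome membrane, had 299, 297 and 297 CPM with PDGF and 475, 428 and 419 CPM without. The PDGF libraries were almost level and all lay below the PDGFNO libraries. The means were 298 ± 0.935 and 441 ± 29.9 CPM (SD, n = 3; log2 fold change -0.57, SE 0.12, adjusted p = 0.0128, batches -0.67 and -0.51). Its relative GABARAPL1 had 69.1, 55.7 and 54.6 CPM with PDGF and 90.2, 73.6 and 73.4 CPM without, with no overlap (log2 fold change -0.40, SE 0.16, adjusted p = 0.124, with the block 2.17e-05). MAP1LC3A had 0 counts in all 6 libraries. If its reads were countable, this allows up to 0.0737 CPM over the PDGF libraries and 0.0911 CPM over the PDGFNO libraries. SORT1 and TSC1, from the lists of related genes read below, also had 0 counts in all 6 libraries. For none of these genes was it tested whether reads could be counted.

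SQSTM1 encodes p62, the receptor that hands ubiquitinated cargo to ATG8 proteins. It had 580, 882 and 870 CPM with PDGF and 901, 1281 and 1288 CPM without. All PDGF libraries lay below the PDGFNO libraries, and replicate 1 was the lowest of its group on both sides. The log2 fold change was -0.57 (SE 0.21, adjusted p = 0.0925, with the block 1.22e-11), with -0.64 in batch 1 and -0.55 in batch 2. Without PDGFNO replicate 1 the adjusted p was 0.0200. Per kilobase SQSTM1 and GABARAP had the highest levels of the autophagy genes, at 366 and 348 CPM per kilobase with PDGF and 545 and 515 without. Exons of SQSTM1 overlap MGAT4B on the opposite strand.

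ATG16L2, a relative of the ATG16L1 that places the ATG8 coupling enzyme on the membrane, had 9.05, 11.8 and 12.3 CPM with PDGF and 19.1, 15.9 and 17.8 CPM without. The groups did not overlap (log2 fold change -0.67, SE 0.19, adjusted p = 0.0458, batches -1.08 and -0.48), and its exons overlap LOC114672355 on the opposite strand. ATG16L1 went the other way with 28.7, 32.0 and 29.98 CPM against 24.9, 20.9 and 20.4 CPM. It showed no overlap and was not called (log2 fold change 0.45, SE 0.16, adjusted p = 0.0841, with the block 0.00149).

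ATG4A, one of the proteases that trim and release ATG8 proteins, had 19.6, 11.3 and 15.8 CPM with PDGF and 10.7, 4.98 and 6.47 CPM without. The lowest PDGF library lay just above the highest PDGFNO library. Its log2 fold change of 1.07 was the second highest of the 49, and it missed the threshold (SE 0.33, adjusted p = 0.0559, with the block 7.41e-06). DESeq2 called it with an adjusted p of 0.0108, and without PDGFNO replicate 1 edgeR called it at 0.0110. Exons of ATG4A overlap COL4A6 on the opposite strand. The other ATG4 genes had log2 fold changes of -0.23 for ATG4B (adjusted p = 0.468, with the block 0.00450), 0.39 for ATG4C (adjusted p = 0.310, with the block 0.00199) and -0.09 for ATG4D (adjusted p = 0.861).

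ATG9A, the lipid scramblase of the vesicles that seed autophagosomes, had counts identical to those of ABCB6 and cannot be told from it. The values were 50.2, 73.9 and 75.6 CPM with PDGF and 33.3, 45.7 and 54.1 CPM without. The groups overlapped, with every PDGF library above the PDGFNO library of its number (log2 fold change 0.59, adjusted p = 0.118, with the block 9.83e-07). ATG2A and ATG7 had negative values, at -0.42 (adjusted p = 0.447, with the block 3.58e-05) and -0.49 (adjusted p = 0.119, with the block 0.0176). ATG2A passes lipid into the growing membrane, and ATG7 is the activating enzyme of both conjugation systems. The conjugation genes ATG3, ATG5 and ATG10 had log2 fold changes of 0.04, 0.04 and -0.48, ATG2B had 0.12, and the ULK complex genes ATG13 and ATG101 had -0.11 and 0.10, none of them called by edgeR in the fit without a block or with the plain block. With the block and the GC and length correction ATG101 was called, at 0.55 (adjusted p = 4.37e-08).

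Of the 3 initiation genes none was called by edgeR or DESeq2. An unadjusted p below 0.05 was found for 1 of them, and for 3838 of all 11539 genes. WIPI1, which binds the lipid of the nascent membrane, had 149, 148 and 150 CPM with PDGF and 123, 120 and 110 CPM without. The groups did not overlap (log2 fold change 0.34, SE 0.12, adjusted p = 0.0896, with the block 1.90e-05). BECN1, a subunit of the lipid kinase complex, and ULK1, the kinase that starts the process, had 0.13 (adjusted p = 0.680) and -0.19 (adjusted p = 0.784). A p above the threshold does not show that the levels were equal.

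**Figure D4:**
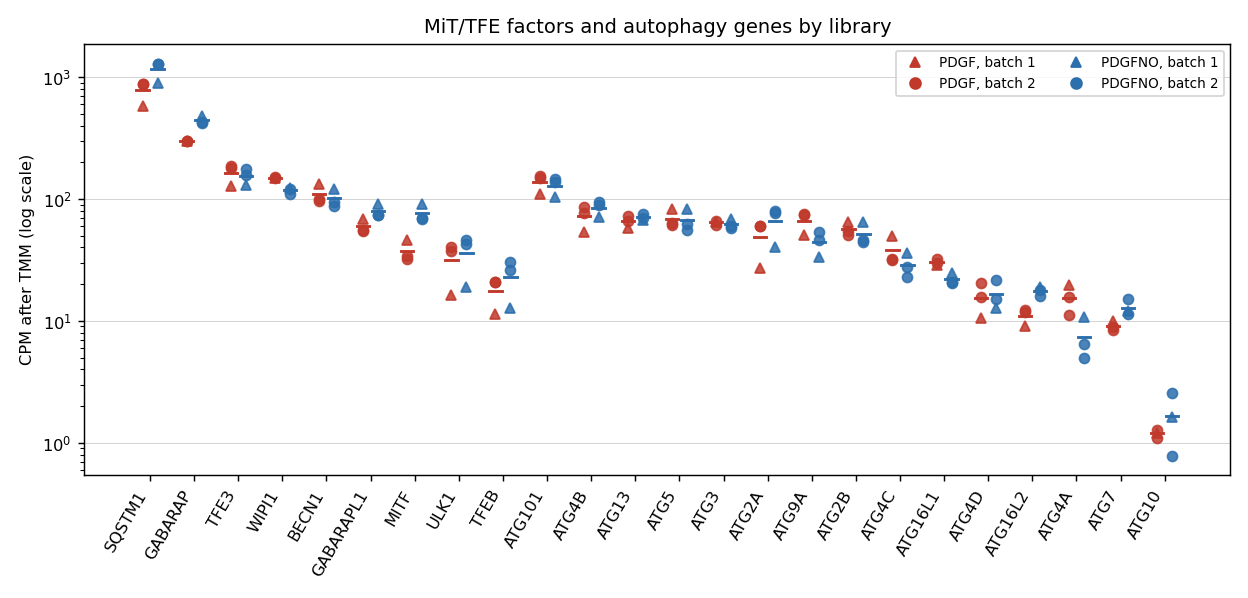
CPM of the autophagy genes and the factors TFEB, TFE3 and MITF in each library (log axis), PDGF beside PDGFNO, with triangles for batch 1 and circles for batch 2. GABARAP lies between 297 and 299 CPM with PDGF and between 419 and 475 CPM without, and MITF between 32.3 and 45.8 CPM and between 68.7 and 90.8 CPM.

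The 10 genes that did not pass the filter had few counts. CTSG, a protease of neutrophil granules, and MAP1LC3A had none. CTSV, the closest relative of CTSL, had 1 count over the PDGF libraries and 17 over the PDGFNO libraries, a ratio of PDGFNO to PDGF of 21.2 with an exact Clopper-Pearson 95% interval from 3.32 to 886. CTSE had 10 and 27 counts (ratio 3.37, interval 1.58 to 7.79), and ATP6V1E2, an E subunit known from the acrosome of sperm, had 7 and 18 (ratio 3.21, interval 1.28 to 9.08). For these 3 genes the interval of the ratio lay above 1. ATP6V0A4, the kidney form of the V0 a subunit, had 8 and 14 counts, CTSW and LAMP3 each had 6 and 5, and ATP6V1G3 and LAMP5 each had 2 and 0. The intervals cover counting error only, not the spread between cultures.

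Leaving out each library in turn separated the calls, and it also changed how many of all genes were called. The share was 16.1%, 9.91% and 9.96% without PDGF replicates 1, 2 and 3, against 18.3% with all libraries. It was 25.6%, 10.2% and 10% without PDGFNO replicates 1, 2 and 3. A lost call is to be read beside these shares. CTSL, CTSH, CTSC and MITF were called in all 6 such fits, and MITF was lost only when replicates 2 and 3 were summed (adjusted p = 0.103). CTSA lost its call without PDGF replicate 2 (adjusted p = 0.0613) or PDGFNO replicate 2 (0.0570), and CTSF without PDGF replicate 2 (0.0731) or PDGFNO replicate 3 (0.0720). ATP6V1G1 lost it without PDGF replicate 2 (0.0557) or 3 (0.0675), and GABARAP without PDGF replicate 2 (0.0685) or 3 (0.0656) or PDGFNO replicate 2 (0.0529).

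The calls of the other 5 genes were lost in more of these fits. ATP6V1B2 was lost without PDGF replicate 2 (adjusted p = 0.0717) or 3 (0.0650) or PDGFNO replicate 2 (0.106) or 3 (0.102). ATP6V1A was lost without PDGF replicate 1 (0.0552), 2 (0.0749) or 3 (0.0688) or PDGFNO replicate 2 (0.0969) or 3 (0.104), and with upper quartile factors (0.0525). ATP6V1C1 was lost without PDGF replicate 2 (0.138) or 3 (0.133) or PDGFNO replicate 1 (0.0599), 2 (0.0740) or 3 (0.0775), and without normalization factors (0.0660). LAMP1 was lost without PDGF replicate 1 (0.106), 2 (0.118) or 3 (0.129) or PDGFNO replicate 2 (0.163) or 3 (0.182), under limma-voom (0.0516) and with no count filter (0.0736). ATG16L2 was lost in all 6, with adjusted p between 0.0632 without PDGFNO replicate 1 and 0.130 without PDGFNO replicate 3, without normalization factors (0.0517) and with no count filter (0.0614). The direction of these 13 genes did not change in any of these fits.

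**Figure D5:**
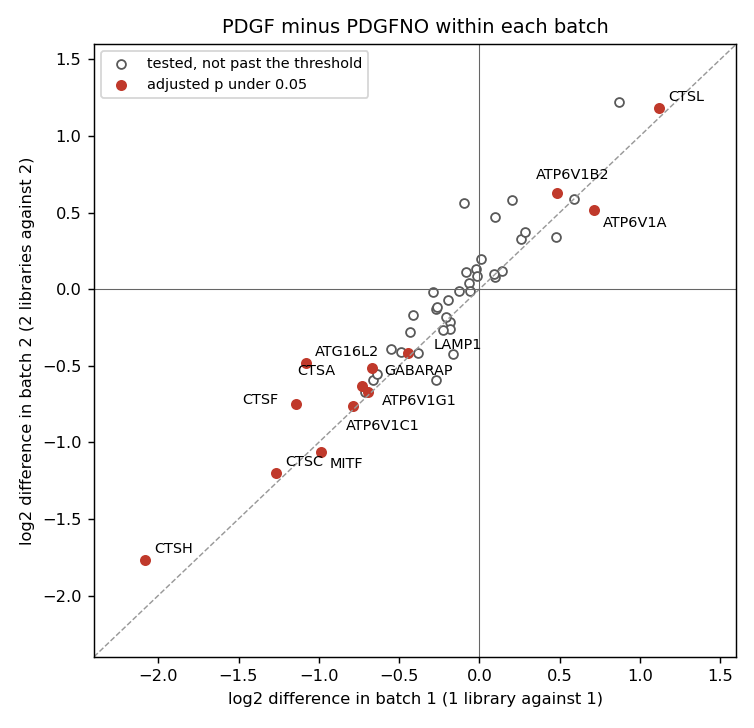
Log2 difference of PDGF minus PDGFNO in batch 1 (1 library against 1, horizontal axis) and in batch 2 (2 libraries against 2, vertical axis) for the 49 genes tested. In 44 of 49 the sign is the same in both batches, CTSH lies lowest on both axes (-2.08 and -1.77), and CTSL (1.12 and 1.18) and ATG4A (0.87 and 1.22) lie highest.

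Other genes of the lysosome were read from a list of 40 hydrolases and activators. With PDGF 10 of the 40 were lower and none higher in edgeR, which is 25% against 18.3% of all genes, and the median log2 fold change was -0.37. The count was 3 without PDGFNO replicate 2, 4 without PDGFNO replicate 3, 5 without PDGF replicate 2 or 3, 6 without PDGF replicate 1, and 1 with replicates 2 and 3 summed. Each of these fits also called fewer of all genes, between 5.78% and 16.1%. Unadjusted p was below 0.05 for 19 of the 40 in either direction, and for 3838 of all 11539 genes. DESeq2 called 1 higher and 11 lower, and 23.6% of all genes. With the replicate block 6 were higher and 23 lower, while 60.1% of all genes were called. When the GC and length correction was added, 11 were higher and 19 lower, while 58.6% of all genes were called. Among the genes lower were SIAE, DPP7, DNASE2, GAA, GM2A, ASAH1, PSAP and TPP1, the last 5 named outside the naming rule after their values were seen.

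DNASE2, the acid DNase, had 16.2, 18.1 and 23.1 CPM with PDGF and 43.1, 52.3 and 55.7 CPM without. The groups stood apart, and the call (log2 fold change -1.40, SE 0.19, adjusted p = 0.00238) held in every fit with a library left out. DPP7, a dipeptidyl peptidase, had 112 ± 38.8 CPM with PDGF and 349 ± 118 CPM without (log2 fold change -1.64, adjusted p = 0.0133), and was lost without PDGFNO replicate 2 (0.0537) or 3 (0.0536). SIAE, a sialic acid esterase, was near the filter, at 0.391 ± 0.189 and 1.61 ± 0.619 CPM (log2 fold change -2.02, adjusted p = 0.0328), and kept its call only without PDGFNO replicate 3, with adjusted p between 0.0572 and 0.116 in the other 5 such fits. With 5, 3 and 8 counts in PDGF and 27, 17 and 10 in PDGFNO, it passed the filter only through the PDGFNO libraries.

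Of 33 membrane and delivery genes of the lysosome 1 was higher and 3 were lower, which is 12.1% against 18.3% of all genes. IGF2R, the receptor that carries newly made hydrolases to the lysosome, had 247 ± 20.7 CPM with PDGF and 163 ± 12.2 CPM without (log2 fold change 0.60, SE 0.13, adjusted p = 0.0172), and lost the call without PDGF replicate 2 (0.0803) or 3 (0.0691) or PDGFNO replicate 2 (0.0771). NPC2, the cholesterol carrier of the lumen, had 174 ± 11.1 and 319 ± 16.3 CPM (log2 fold change -0.87, adjusted p = 0.00268) and was called in all 6 fits with a library left out. The tetraspanin CD63 and LAPTM4B had log2 fold changes of -0.55 (adjusted p = 0.0458) and -0.45 (adjusted p = 0.0276), and lost the call in 5 and 4 of these fits. Of 10 genes on a list of accessory and assembly proteins of the pump none was called. An unadjusted p below 0.05 was found for 2 of them, and for 3838 of all 11539 genes. DESeq2 called 1 higher, in a fit that called 23.6% of all genes. Of these 10, 9 had a positive value. Under the block 5 were higher and 1 lower, in a fit that called 60.1% of all genes. The negative value was that of TCIRG1 (log2 fold change -0.33, adjusted p = 0.517), which is itself a V0 subunit.

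Among 21 selective autophagy receptors 2 were higher and 2 lower, a share of 19% that is near the 18.3% of all genes. BNIP3, a mitophagy receptor that is also a textbook hypoxia gene, had 320, 260 and 241 CPM with PDGF and 78.7, 62.5 and 58.4 CPM without. No library of one group came near the other (log2 fold change 2.04, SE 0.18, adjusted p = 3.11e-04), and the call held in every alternative tried. Its relative BNIP3L had 61.1 ± 3.10 and 31.1 ± 5.69 CPM (log2 fold change 0.97, adjusted p = 0.00681). OPTN, a receptor for bacteria and damaged mitochondria, had 81.8 ± 5.44 and 134 ± 7.34 CPM (log2 fold change -0.71, adjusted p = 0.00837), and lost the call without PDGF replicate 2 (0.0503) or 3 (0.0539). RETREG1, a receptor for the endoplasmic reticulum, was low in level (log2 fold change -2.38, adjusted p = 0.00992) and was lost without PDGF replicate 3 (0.0513).

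Of 23 genes of autophagy initiation and its lipid kinases 2 were higher and 1 lower (13%, against 18.3% of all genes). PIK3C2A, a lipid kinase, had a log2 fold change of 0.67 (adjusted p = 0.0329), and EPG5, a tether for fusion with the lysosome, had 0.61 (adjusted p = 0.0491). VAMP8, a SNARE of that fusion, had -1.79 (adjusted p = 0.0195) at 1.34 ± 0.632 and 4.67 ± 1.33 CPM. The 3 lost their calls in 5, 6 and 3 of the 6 fits with a library left out. Of 27 genes of mTORC1 and nutrient sensing 1 (3.7%, against 18.3% of all genes) was called, SESN2, a leucine sensor, with a log2 fold change of -0.62 (adjusted p = 0.0324), lost in 5 of the 6. Of 5 genes on the list of protease inhibitors LXN was higher (log2 fold change 0.81, adjusted p = 0.0337, lost in 5 of the 6) and CST8 lower (-3.25, adjusted p = 0.00534, kept in all 6). These calls are 40% of the 5, against 18.3% of all genes. LXN inhibits metallocarboxypeptidases rather than cathepsins, and CST8, a cystatin of the male reproductive tract, was at 0.244 ± 0.190 and 2.41 ± 0.458 CPM.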

How the data were processed

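Libraries of messenger RNA, 3 with PDGF and 3 without (PDGFNO), were compared. The authors deposited unnormalized expected counts for each gene. In 13 genes 34 of the values were not whole, whereas the plan had assumed whole counts, so all were rounded. The submitters' processing notes name fastp, HISAT2 2.1.0, SAMtools, featureCounts 2.0.1 and the builds Mmul_10 and Mmul_8.0.1, without roles, so the build behind the counts and the strand setting are open.

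Counts were scaled by TMM and filtered with filterByExpr by group, and edgeR 4.0.16 (R 4.3.3) tested the groups by its quasi-likelihood test with no block, with Benjamini-Hochberg adjustment over all genes tested. Each SE was obtained as the size of the log2 fold change over the root of its F statistic. A gene that passed the filter only through the PDGFNO libraries, such as DDX4, SIAE, RETREG1 or CST8, could hardly be called higher with PDGF. Differences within a batch used 0.5 counts added. Where a gene did not pass the filter, sums over the group were compared by exact Clopper-Pearson 95% intervals. A sum of 0 counts was read as up to 3 over the group, which holds only if reads of the gene could be counted. PCR duplicates cannot be seen in counts, so the intervals and this limit cover counting error only. Of the 59 genes, 3 had the counts of another gene in every library. Promoter windows, transcript lengths and exon overlaps came from NCBI RefSeq on Mmul_10, matched by symbol for all 59. Tables were made in Python 3.11.15 (pandas 2.3.3), intervals with scipy 1.17.1 and plots with matplotlib 3.10.9.

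The genes, the companion and marker lists and the tests were chosen with earlier results of these data known. Genes named are all called members, members below the filter, TFEB, TFE3 and MITF. The member with the highest level per kilobase in each role was named too. In each companion list of lysosome and autophagy genes, up to 3 genes per direction with the largest called change are named. Of the marker lists only some such genes are named. Further members are named for completeness. Libraries with the same number share a batch by the labels, and deviations of same-numbered libraries from their group's mean were correlated (number 1, r = 0.67; number 2, r = 0.29; number 3, r = 0.31). The number was therefore taken to pair libraries. Cross pairs of replicates 2 and 3 gave 0.32 and 0.30, so the pairing is one by batch. Alternatives were RLE, upper quartile and no factors, DESeq2 1.42.0, limma-voom (limma 3.58.1), 2 further count filters, the replicate block, alone or with a GC and length correction, batch as a term, batch 2 alone, replicates 2 and 3 summed, other thresholds and each library left out. Upper quartile factors and the alternatives for the companion lists were added after seeing the data. The steps were tested on simulated data.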

Additional observations from a re-analysis of the deposited data

How the results depend on the processing

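Against 3 genes higher and 10 lower of the 49, the replicate block gave 10 and 23, batch as a term 10 and 23, batch 2 alone 9 and 21, and the block combined with a GC and length correction 14 and 16. In that order these fits called 60.1%, 60.6%, 52.8% and 58.6% of all genes, against 18.3% in the main fit. Summing replicates 2 and 3 left 1 and 2, a threshold of 0.01 left 1 and 3, and a threshold of 0.1 gave 6 higher and 12 lower. The shares of all genes called were then 5.78%, 7.82% and 27%. With a library left out, 1 to 5 genes were higher and 3 to 11 lower, in fits that called 9.91% to 25.6% of all genes. Against 10 lysosomal hydrolases lower, the block gave 23 (6 higher), the block with GC and length 19 (11 higher), batch as a term 23 (6 higher), batch 2 alone 23 (4 higher), the summed replicates 1, a threshold of 0.01 gave 3, no count filter 6, and the fits with a library left out 3 to 11. The fit with no count filter called 14.5% of all genes, and the other shares are those given above. ATG4D alone changed sign and passed the threshold, to a log2 fold change of 0.36 with the block and the GC and length correction (adjusted p = 0.0262). ATG101, ATP6V0B, ATP6V1E1, BECN1 and TFE3 were also called, all higher, in that fit and not with the plain block. That correction moved the median of all genes from 0.02 to 0.10. RLE, upper quartile and no factors, no count filter, a minimum of 10 counts in every library, DESeq2 and limma-voom kept the numbers within 2 to 4 higher and 8 to 11 lower, of 57 members tested with no count filter, 48 with the minimum of 10 and 49 in the others. Over all genes, 693 were called with replicates 2 and 3 summed and 6934 with the block. All 13 calls were kept with the block, and it ended none. The cause of these shifts was not tested. Genes below the filter allow only wide intervals.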
